A study of Homo sapiens with 12 samples.

Results

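The comparison described here is the difference between 2 effects of the mutated transcription factor ETV4AAA. One is the change from control to ETV4AAA in the human prostate cancer line 22Rv1, and the other is the same change in the line PC3. It rests on 8 of the 12 RNA-seq libraries of the study, chosen by their labels: 2 each of 22Rv1 with ETV4AAA, 22Rv1 with eGFP, PC3 with ETV4AAA and PC3 with eGFP. All 8 carry an integrated MSCV-IRES-eGFP vector, which in the control groups expresses eGFP alone and in the others ETV4AAA together with eGFP. Living (DAPI-negative) eGFP-positive cells were sorted 1 week after infection, and polyadenylated RNA was counted per gene. PC3 was grown from a bone metastasis and lacks p53, and 22Rv1 comes from the CWR22 xenograft and keeps luminal prostate markers. Each line is a single model of its kind. The sources used here do not give the residues altered in ETV4AAA. Nothing in the labels says that replicates came from separate cultures, so that p-values measure the spread between these libraries. The 4 remaining libraries carry wild-type ETV4 and served only to estimate the spread.

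ETV4, ETV1 and ETV5 make up the PEA3 group within the ETS family, whose members bind DNA around a GGAA core. The PEA3 factors are induced and activated downstream of growth factor receptors and the ERK kinases, and raise genes of migration and matrix breakdown. Rearrangements that place ETV1 or ETV4 under a prostate-specific promoter occur in a fraction of prostate cancers. Which genes such a factor reaches depends on the other factors and the open chromatin of a cell.

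The 8 libraries held 41698738 to 51199207 counts. Of 58302 genes in the table, 23238 passed a filter on low counts and were tested with edgeR's quasi-likelihood test, and "called" below stands for an adjusted p under 0.05 (Benjamini-Hochberg, over all 23238). Levels are CPM (library-scaled counts, with TMM factors), given for both libraries of a group, and changes are log2 changes ± SE with n = 2 libraries a group. Replicates differed most in PC3 with ETV4AAA, where chi-square per degree of freedom was 60.1, against 3.36 in PC3 with eGFP, 31 in 22Rv1 with eGFP and 22.4 in 22Rv1 with ETV4AAA. The line labels held: the luminal prostate protease gene TMPRSS2 stood at 128 and 126 CPM in 22Rv1 with eGFP and had 0 counts in PC3 with eGFP, while vimentin, VIM, stood at 6.24 and 7.23 CPM against 481 and 473 CPM. Of 10 immune cell markers 4 passed the filter, and the summed level of the 10 was 0.795 to 9.27 CPM in all 8 libraries. CD3D and MS4A1 had 0 counts in all of these libraries.

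ETV4 itself, on chromosome 17 from 43527844 to 43579620 (GRCh38), was raised far more in 22Rv1. In 22Rv1 it stood at 31.2 and 24.9 CPM with eGFP and ETV4AAA took it to 390 and 281 CPM, a log2 change of 3.58 ± 0.37. The PC3 levels were 116 and 126 CPM with eGFP and 223 and 109 CPM with ETV4AAA (0.46 ± 0.33, adjusted p = 0.495). The second PC3 library labelled ETV4AAA was therefore not above the controls. The difference of the effects was 3.12 ± 0.48 (adjusted p = 0.000831), and the counts do not tell introduced from endogenous transcripts. The lines thus differed in the rise and in the starting level of ETV4, and both differences run through every comparison below. Their part in the other genes' differences was not tested and cannot be told apart from the line.

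The related factors ETV1 and ETV5 fell in 22Rv1 and not in PC3. ETV5 went from 12.6 and 13.1 to 2.66 and 3.3 CPM in 22Rv1, and from 167 and 168 to 193 and 191 CPM in PC3, a difference of -2.30 ± 0.18 (adjusted p = 5.08e-06). ETV1 went from 23.4 and 24.7 to 5.12 and 5.62 CPM in 22Rv1, and from 80 and 77.8 to 71 and 76.2 CPM in PC3, a difference of -2.06 ± 0.19 (adjusted p = 1.53e-05). Neither gene's libraries overlapped between eGFP and ETV4AAA in 22Rv1.

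The response was much wider in 22Rv1 than in PC3. In 22Rv1 7395 genes were called (31.8% of those tested), 4054 up (17.4%) and 3341 down (14.4%). In PC3 858 were called (3.69%), 569 up (2.45%) and 289 down (1.24%). Among called genes the median size of the change was log2 1.15 in 22Rv1 and 1.08 in PC3. Each median covers only genes past that line's own threshold, so the 2 do not compare the strength of the responses. The difference between the lines was called for 3766 genes (16.2%), 2203 above 0 (9.48%), meaning a larger rise or smaller fall in 22Rv1, and 1563 below 0 (6.73%). An unadjusted p under 0.05 was reached by 6809. The count of called differences was 2412 without PC3 eGFP replicate 1 and 2330 without PC3 eGFP replicate 2. The PC3 count was 210 and 233 without these, 383 without ETV4AAA replicate 2 and 2123, of which 31.8% were up, without ETV4AAA replicate 1.

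Of the 3766 genes, 3104 changed in 22Rv1 and were not called in PC3, 173 changed in PC3 and were not called in 22Rv1, 138 changed in opposite directions, 123 changed in the same direction by different amounts, and 228 were called in neither line alone. A further 198 genes were called in both lines, in the same direction, with no difference called. Of the 569 genes up in PC3, 262 (46.0%) were also up in 22Rv1, where they made up 6.46% of the rises. Over all genes tested 17.4% rose in 22Rv1, and 1.13% were up in both lines. Of the 289 genes down in PC3, 59 (20.4%) were also down in 22Rv1, against 14.4% down there over all genes tested. Another 85 (29.4%) were up in 22Rv1, against 17.4% over all. Of the 569 genes up in PC3, 53 (9.31%) were down in 22Rv1, below the 14.4% over all. Genes down in both lines were 0.254% of all tested. Over the 12564 genes with at least 1 CPM in both lines, the 2 effects had a Pearson r of 0.112 across genes, given as a description. These points share their libraries and are not independent.

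**Figure D1:**
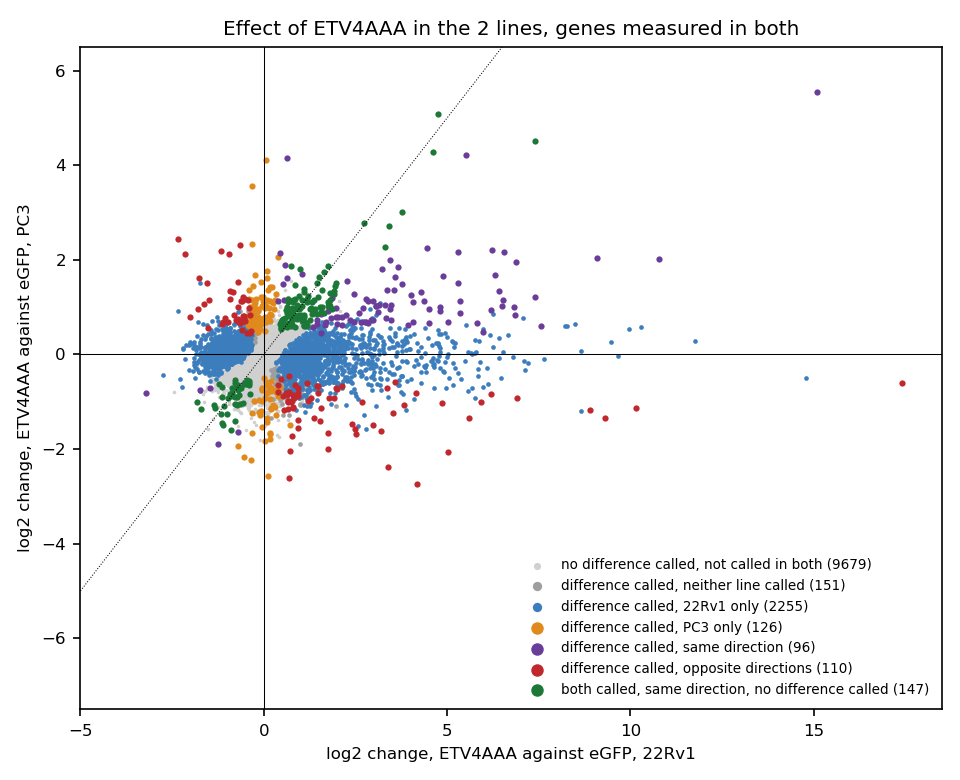
Log2 change with ETV4AAA against eGFP in 22Rv1 (x axis) and PC3 (y axis) for 12564 genes with at least 1 CPM in both lines, each point 1 gene, coloured by which effects were called, with the number of genes in the key and a dotted line of equal change. The 2255 genes called in 22Rv1 and not PC3 spread along the x axis, and the 147 shared genes lie near the dotted line. Positions of genes near 0 counts in a group depend on the model's prior count.

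Genes that rose in 22Rv1 and were not called in PC3, with the difference called, numbered 1825, and 748 of these were under 1 CPM in 22Rv1 with eGFP. In PC3 with eGFP 429 of the 748 were under 1 CPM too, and 169 (22.6%) were at 5 CPM or more. Of all 8718 tested genes under 1 CPM in 22Rv1 with eGFP, 513 (5.88%) were at 5 CPM or more in PC3 with eGFP, though a difference is more easily called where PC3 counts are high. The genes described next were measured in both lines, as the rule for naming genes requires. KRT75, a type II keratin known from the hair follicle, had 0 counts in both 22Rv1 control libraries and stood at 78.1 and 70.9 CPM with ETV4AAA, at least 2420-fold higher when the control group is set to a floor of 3 counts. In PC3 it stood at 130 and 136 CPM with eGFP and at 119 and 68.9 CPM with ETV4AAA. The libraries of 22Rv1 did not overlap, and one PC3 library lay well below its controls while the other lay close to them.

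HAPLN1, a link protein that binds hyaluronan to proteoglycans, stood at 0 and 0.0206 CPM in 22Rv1 with eGFP and rose to 43.1 and 46.2 CPM. The PC3 levels were 360 and 366 CPM with eGFP and 414 and 477 CPM with ETV4AAA. ARHGDIB, which keeps small GTPases in their inactive form, went from 0.0205 and 0.0206 to 22 and 24.3 CPM in 22Rv1, and from 47.8 and 48.7 to 71.3 and 69.2 CPM in PC3. In these genes 22Rv1 moved from almost no transcript towards, but not up to, the PC3 level. G0S2, an inhibitor of the triglyceride lipase ATGL, passed it: 0.656 and 0.494 CPM became 206 and 206 CPM in 22Rv1, and 21.8 and 26.4 CPM became 41.1 and 34.1 CPM in PC3, a difference of 7.83 ± 0.29 (adjusted p = 1.38e-08). The gel-forming mucin MUC5B, the Fc receptor FCGR2A and the endotoxin receptor TLR4 were under 0.1 CPM in 22Rv1 with eGFP. With ETV4AAA MUC5B stood at 32.7 and 19.1 CPM, FCGR2A at 3.26 and 3.27 CPM and TLR4 at 1.29 and 0.807 CPM in 22Rv1. In PC3 the change of each of the 3 was not called.

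Markers of PC3 moved beside these genes, and their part in the rises was not tested. Of 10 such markers 8 rose in 22Rv1, 3 rose in PC3 and the difference was called above 0 for 5. Their summed level went from 438 and 378 CPM in 22Rv1 with eGFP to 1170 and 1150 CPM with ETV4AAA, against 2070 and 2070 CPM in PC3 with eGFP. The receptor tyrosine kinase AXL stayed at 0.0222 and 0.0237 CPM in 22Rv1 with ETV4AAA, where PC3 with eGFP held 10.6 and 10.4 CPM. TGFBI was at 269 and 264 CPM in 22Rv1 with ETV4AAA and at most 0.0822 CPM in PC3. It is thus no marker of these PC3 cells, though the counts and the summed level of the 10 markers include it. AXL, TGFBI, VIM and TMPRSS2 were chosen after their values were seen. TMPRSS2 stood at 114 and 108 CPM in 22Rv1 with ETV4AAA.

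The falls seen in 22Rv1 alone were smaller. CDH7, a type II cadherin, went from 11.3 and 11.8 to 2.57 and 2.49 CPM in 22Rv1 and from 1.37 and 1.53 to 1.54 and 1.63 CPM in PC3, a difference of -2.32 ± 0.27 (adjusted p = 0.000112). PKP1, a plaque protein of desmosomes, went from 6.97 and 5.99 to 2 and 2.14 CPM in 22Rv1, and from 130 and 140 to 257 and 168 CPM in PC3 (difference -2.30 ± 0.29). ZGRF1, a helicase of DNA repair, and A1CF, a cofactor of apolipoprotein B RNA editing, had differences of -2.24 ± 0.26 and -2.19 ± 0.29. For each of the 4 genes the 22Rv1 libraries with ETV4AAA lay below both controls, which their selection by a call in 22Rv1 favours.

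Cell cycle genes fell in 22Rv1 and were not called in PC3. Of 40 tested 39 fell and 0 rose in 22Rv1, in PC3 0 were called in either direction, and the difference was called below 0 for 34 and above 0 for 0. The list's median difference was -1.27, beside 0.04 over all genes tested. RRM2, the small subunit of ribonucleotide reductase, went from 119 and 133 to 35.8 and 40.6 CPM in 22Rv1, and from 189 and 184 to 195 and 219 CPM in PC3, a difference of -1.87 ± 0.17 (adjusted p = 1.74e-05). The replication factors MCM4 (-1.24 ± 0.14) and CDC6 (-1.59 ± 0.18) and the protease FAM111B (-1.59 ± 0.19) differed likewise. MCM7, a subunit of the replicative helicase, went from 973 and 862 to 427 and 393 CPM in 22Rv1, and from 509 and 529 to 453 and 303 CPM in PC3. Its difference of -0.71 ± 0.27 was not called (adjusted p = 0.0972), and was -0.97 (adjusted p = 0.0261) without PC3 ETV4AAA replicate 2. The inhibitor of cyclin D kinases CDKN2B rose in 22Rv1 from 2.65 and 2.45 to 12.2 and 11.3 CPM. In PC3 it stayed between 35.6 and 39 CPM (difference 2.33 ± 0.18). CDKN2C, another CDK inhibitor, fell from 53.5 and 48.3 to 29.5 and 29.6 CPM in 22Rv1. In PC3 CDKN2C fell from 57.7 and 59 to 40.5 and 36.1 CPM. Of 15 CDK inhibitors and D-type cyclins 4 rose and 5 fell in 22Rv1. Without both replicate 2 libraries of PC3 that carry ETV4, the count of called cell cycle differences was 38.

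**Figure D2:**
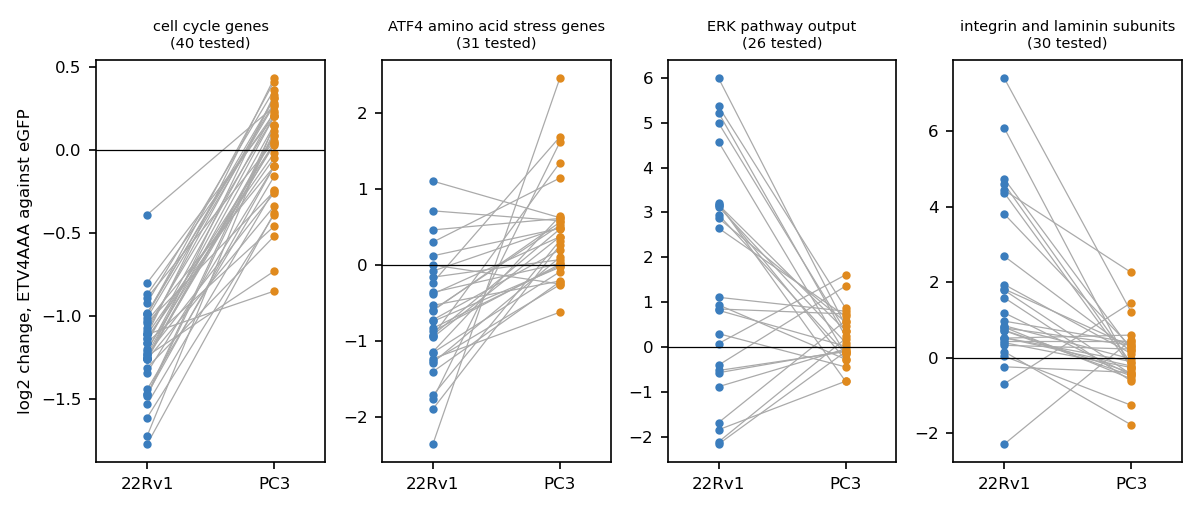
Log2 change with ETV4AAA against eGFP of each tested member of 4 gene lists in 22Rv1 (blue) and PC3 (orange), a grey line joining the values of a gene. The 40 cell cycle genes lie between -1.77 and -0.39 in 22Rv1 and between -0.85 and 0.43 in PC3, while the other 3 lists spread more widely in 22Rv1 than in PC3.

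Genes of the amino acid stress response, which the factor ATF4 drives when amino acids run short or translation is impaired, moved apart in the 2 lines. Of 31 tested, 19 fell and 2 rose in 22Rv1, while 8 rose and 0 fell in PC3. The difference was called below 0 for 19 and above 0 for 0, with a median of -0.92, and 5 members were called in opposite directions. CHAC1, which degrades glutathione, went from 14.1 and 8.52 to 2.33 and 2.09 CPM in 22Rv1, and from 2.6 and 2.64 to 21 and 7.55 CPM in PC3. The difference was -4.80 ± 0.61 (adjusted p = 0.000206), and no libraries overlapped in either line. ASNS, the asparagine synthetase, went from 4.31 and 4.16 to 1.35 and 1.14 CPM in 22Rv1, and from 1.59 and 1.74 to 6.16 and 4.02 CPM in PC3 (difference -3.37 ± 0.33). ATF3, a stress-induced partner of this pathway on chromosome 1, went from 77.6 and 81.6 to 41.6 and 42 CPM and from 3.54 and 2.88 to 8.57 and 7.67 CPM (difference -2.27 ± 0.20).

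CEBPG, a bZIP partner of ATF4, fell by 1.14 ± 0.13 on the log2 scale in 22Rv1 and rose by 0.64 ± 0.13 in PC3. The serine synthesis enzyme PSAT1 went from 223 and 254 to 67.1 and 78.6 CPM in 22Rv1, and from 198 and 193 to 238 and 251 CPM in PC3, where the change was not called. The amino acid transporter SLC7A5 had a difference of -1.01 ± 0.39 that was not called (adjusted p = 0.105), and -1.37 (adjusted p = 0.0254) without PC3 ETV4AAA replicate 2. In that library it stood at 173 CPM against 313 CPM in the other. The count of called differences in the list was 14 without PC3 eGFP replicate 2 and 22 without both replicate 2 construct libraries of PC3.

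The ERK output list holds genes that ERK signalling induces, many of them feedback inhibitors of the pathway. Its members split: 14 rose and 6 fell in 22Rv1, and 6 rose and 0 fell in PC3, of 26 tested. The difference was called above 0 for 11 and below 0 for 6, with ETV1 and ETV5 among the latter. DUSP6, a phosphatase that removes the activating phosphates of ERK, went from 12.7 and 14.4 to 848 and 873 CPM in 22Rv1, and from 75.5 and 73.1 to 96.5 and 111 CPM in PC3. Both rises were called, and they differed by 5.51 ± 0.18 (adjusted p = 8.73e-09). DUSP4, a nuclear phosphatase of the same family, went from 7.45 and 7.6 to 298 and 262 CPM in 22Rv1, and from 94.4 and 94.8 to 112 and 111 CPM in PC3 (difference 4.98 ± 0.16). The receptor signalling inhibitor SPRY4 went from 11.9 and 10.3 to 493 and 422 CPM, and from 205 and 209 to 391 and 367 CPM (difference 4.49 ± 0.20). For these 3 genes the controls of PC3 stood well above those of 22Rv1, and with ETV4AAA 22Rv1 stood above PC3.

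PHLDA1, an ERK-induced gene, rose from 3.18 and 3.13 to 104 and 96.6 CPM in 22Rv1 and was not called in PC3 (difference 4.63 ± 0.18). SPRED1, a further ERK inhibitor, rose in both lines, by 1.11 ± 0.14 in 22Rv1 and 0.80 ± 0.13 in PC3, with no difference called (adjusted p = 0.314). The shared call of SPRED1 ended without PC3 eGFP replicate 1 (adjusted p = 0.0821) or replicate 2 (0.0918). CCND1, which encodes cyclin D1, stood at 1550 and 1530 CPM in 22Rv1 with eGFP and 1120 and 1020 CPM with ETV4AAA, and its difference of -0.42 ± 0.16 was not called. Among EGF family ligands and their receptors, 6 of 16 had a difference above 0 and 1 below. The EGF receptor ligands AREG, from 0.615 and 1.21 to 20.1 and 23.4 CPM in 22Rv1, and TGFA, from 1.95 and 2.18 to 16.3 and 17.1 CPM, were not called in PC3. The differences were 4.71 ± 0.38 for AREG and 2.90 ± 0.21 for TGFA. The EGF receptor inhibitor ERRFI1 rose about equally, by 1.03 ± 0.13 and 1.02 ± 0.13, and the 95% interval of its difference was -0.40 to 0.42.

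Of 27 genes reported as PEA3 factor targets, 18 rose and 2 fell in 22Rv1, and 5 rose and 1 fell in PC3. The difference was above 0 for 13 and below for 1. TWIST1, a bHLH factor of the mesenchyme, rose from 10.1 and 9.33 to 212 and 207 CPM in 22Rv1 and stood at 5.25 and 5.39 against 4.46 and 4.66 CPM in PC3 (difference 4.65 ± 0.18, adjusted p = 2.03e-08). CXCR4, the receptor of the chemokine CXCL12, rose from 0.718 and 1.09 to 24.6 and 26.2 CPM in 22Rv1 and was not called in PC3 (difference 5.09 ± 0.33). The adhesion molecule ICAM1 had a difference of 4.80 ± 0.35. With ETV4AAA CXCR4 passed in 22Rv1 the level of PC3 in either condition, having been below it with eGFP. TWIST1 stood above the PC3 levels in the 22Rv1 controls already.

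Matrix metalloproteinases and the urokinase system, which share 10 genes with the PEA3 list, had 18 rises and 0 falls of 24 in 22Rv1 and 4 rises and 1 fall in PC3. The difference was above 0 for 13 and below for 0. PLAU, the urokinase plasminogen activator, rose in both lines. It went from 0 and 0.0206 to 1.24 and 1.73 CPM in 22Rv1, which is 129 counts against 1 (ratio 144, 95% exact interval 25.4 to 5730, counting error only). In PC3 it went from 64.7 and 66.7 to 125 and 110 CPM. The interval of the ratio is wide because the controls of 22Rv1 held a single count.

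Integrins and laminins, the receptors and ligands that tie cells to the basement membrane, had 19 rises and 0 falls of 30 in 22Rv1 against 3 rises and 1 fall in PC3. The difference was above 0 for 15 and below for 0. The laminin chain LAMB3 rose in both lines, from 4.57 and 2.72 to 700 and 538 CPM in 22Rv1 and from 15.7 and 16.6 to 45.9 and 28.7 CPM in PC3, and the rises differed by 6.20 ± 0.43 (adjusted p = 1.45e-06). LAMA4 went from 0.369 and 0.412 to 26.6 and 27.2 CPM in 22Rv1 and from 63.5 and 62.2 to 52 and 51.2 CPM in PC3 (difference 6.38 ± 0.21). ITGA6, the integrin subunit that binds laminin, went from 3.14 and 3.64 to 92.5 and 88.9 CPM in 22Rv1 and was not called in PC3 (difference 4.53 ± 0.21). The integrin ITGB8, which activates latent TGF-beta, also had a difference above 0, but its called change was in PC3. It was not called in 22Rv1 (6.77 and 6.26 against 7.19 and 7.38 CPM). In PC3 it fell from 25.9 and 24.9 to 6.72 and 8.06 CPM (difference 1.94 ± 0.22). Basal epithelial genes, with 5 members in common with that list, had 11 differences above 0 and 0 below of 19 tested, 13 rises and 0 falls in 22Rv1, and 2 rises and 1 fall in PC3. A further 6 of the 25 basal genes did not pass the filter on low counts. Of the 19 tested, 9 had at least 1 CPM in both lines. The basal list's median difference was 3.22, or 2.52 with groups at 0 counts set to the floor.

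S100 calcium-binding proteins had 12 rises and 0 falls of 14 in 22Rv1, against 1 rise and 1 fall in PC3, and the difference was above 0 for 10. Over all genes tested 17.4% rose in 22Rv1 and 2.45% in PC3. Only 5 of the 14 had at least 1 CPM in both lines. A missing call in PC3 says little for a member of this or another list that was not measured there. S100A6 went from 36.7 and 34.4 to 237 and 236 CPM in 22Rv1 and from 382 and 400 to 386 and 298 CPM in PC3 (difference 2.93 ± 0.24). S100P rose in 22Rv1 from 37.4 and 33.8 to 100 and 113 CPM and fell in PC3 from 0.986 and 0.709 to 0.144 and 0.191 CPM (difference 3.92 ± 0.35). Of 25 genes of senescence and its secretions, 17 rose and 1 fell in 22Rv1, 6 rose and 1 fell in PC3, and 15 differences lay above 0 against 1 below. SERPINE2, an inhibitor of thrombin and urokinase, went from 4.94 and 6.22 to 137 and 141 CPM in 22Rv1, and from 139 and 139 to 117 and 124 CPM in PC3 (difference 4.84 ± 0.19). The hormone STC1 rose by 2.32 ± 0.18 in 22Rv1 and 2.34 ± 0.34 in PC3, where it stayed under 1 CPM and its call ended without eGFP replicate 1 (adjusted p = 0.0547). IGFBP3, which binds insulin-like growth factors, rose in both, from 44.6 and 44.3 to 394 and 381 CPM and from 1.83 and 2.15 to 3.6 and 3.85 CPM, and the rises differed by 2.22 ± 0.17.

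**Figure D3:**
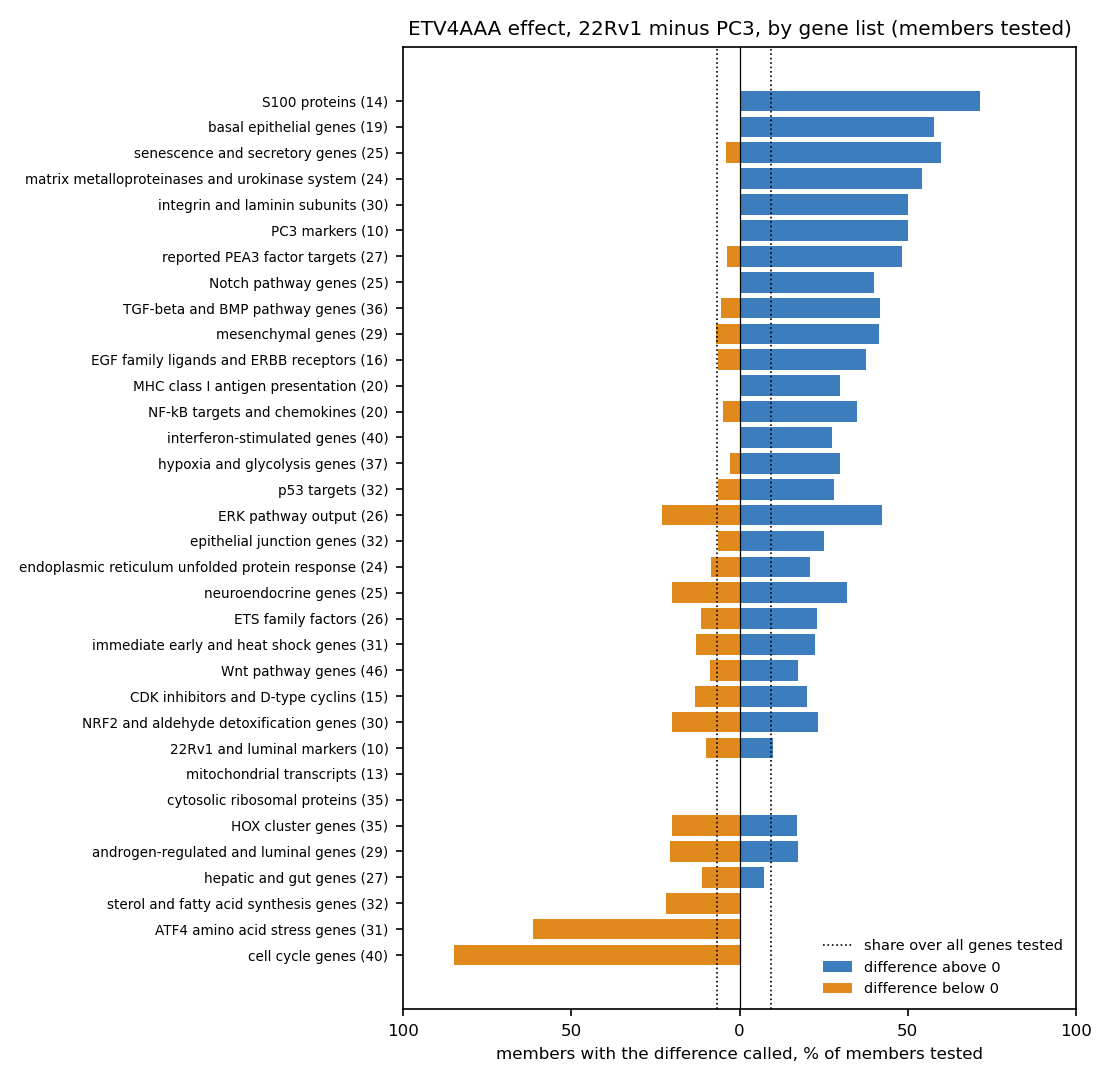
Share of the tested members of each gene list whose ETV4AAA effect differed between the lines, with the difference 22Rv1 minus PC3 above 0 to the right (blue) and below 0 to the left (orange), the number tested in brackets after each name. Dotted lines mark the shares over all genes tested, 9.48% above and 6.73% below. Cell cycle, ATF4 and sterol genes lie on the left alone, and S100, basal, metalloproteinase, integrin, Notch and MHC class I genes on the right alone.

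Genes called in opposite directions numbered 138, or 0.594% of those tested: 85 rose in 22Rv1 and fell in PC3, and 53 did the reverse. The 85 were 29.4% of the falls in PC3, where 17.4% of all genes tested rose in 22Rv1. The 53 were 9.31% of the rises in PC3, where 14.4% of all genes tested fell in 22Rv1. The count was 35 without PC3 eGFP replicate 1, 36 without PC3 eGFP replicate 2, 60 without PC3 ETV4AAA replicate 2, 278 without PC3 ETV4AAA replicate 1, 83 without 22Rv1 ETV4AAA replicate 1, 88 without 22Rv1 ETV4AAA replicate 2 and 83 without 22Rv1 eGFP replicate 2. SPARC, a matricellular glycoprotein encoded on chromosome 5 from 151661096 to 151687165, was the most extreme. It had 1 count in the 22Rv1 controls together (0.0205 and 0 CPM) and stood at 2230 and 2220 CPM with ETV4AAA. In PC3 it went from 70.1 and 68.8 to 47.5 and 43.9 CPM (log2 change -0.60 ± 0.13, adjusted p = 0.0199).

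GDF15, a stress cytokine of the TGF-beta superfamily on chromosome 19 from 18374731 to 18389176, went from 18.4 and 11.5 to 324 and 222 CPM in 22Rv1. In PC3 it went from 7.51 and 7.44 to 1.56 and 0.646 CPM, a difference of 6.93 ± 0.51 (adjusted p = 2.71e-06). CLDN1, a tight junction claudin, went from 0.985 and 1.48 to 74.4 and 75.5 CPM in 22Rv1, and from 29.4 and 28.6 to 13.6 and 15.3 CPM in PC3 (difference 6.93 ± 0.28). The matrix protein fibronectin, FN1, went from 26.5 and 25.3 to 329 and 287 CPM, and from 35.3 and 36.5 to 24.5 and 23.3 CPM (difference 4.16 ± 0.19). In each of the 3 genes both libraries of a group lay beyond both of the other, upwards in 22Rv1 and downwards in PC3. Calls in both lines, by which these genes were classed, favour this.

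The Wnt antagonist DKK1 also rose in 22Rv1, from 10.4 and 10.7 to 33.6 and 37.8 CPM, and fell in PC3, from 211 and 205 to 64.4 and 67.5 CPM (difference 3.41 ± 0.19, adjusted p = 3.02e-07). LEF1, a transcription factor through which Wnt signals act, did the reverse, from 26.4 and 27.7 to 14.6 and 14 CPM in 22Rv1 and from 3.06 and 3.27 to 6.92 and 7.41 CPM in PC3 (difference -2.10 ± 0.20). The pair thus moved in opposite senses within each line. Over the 46 Wnt pathway genes tested, 8 differences were above 0 and 4 below. FAM131B (difference 7.83 ± 0.30), the pseudokinase TRIB2 (7.04 ± 0.35) and the histone demethylase HR (7.10 ± 0.62) were further genes with rises in 22Rv1 and falls in PC3. All 3 stood under 1 CPM in 22Rv1 with eGFP and above 19 CPM in PC3 with eGFP.

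AOX1, an aldehyde oxidase on chromosome 2 from 200585868 to 200677064, led the reverse pattern together with CHAC1. It went from 10.7 and 12.6 to 2.11 and 3.2 CPM in 22Rv1, and from 21.6 and 22.5 to 90.3 and 103 CPM in PC3, a difference of -4.27 ± 0.27 (adjusted p = 6.5e-07). E2F8, a repressor among the E2F cell cycle factors, went from 19.3 and 19.9 to 6.43 and 6.81 CPM, and from 1.21 and 1.18 to 3.16 and 3.73 CPM (difference -3.09 ± 0.23). The T-box factor TBX18 fell slightly in 22Rv1, from 2.79 and 3.05 to 2.02 and 1.71 CPM, and rose in PC3 from 2.44 and 2.47 to 12 and 12.3 CPM (difference -2.95 ± 0.25).

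**Figure D4:**
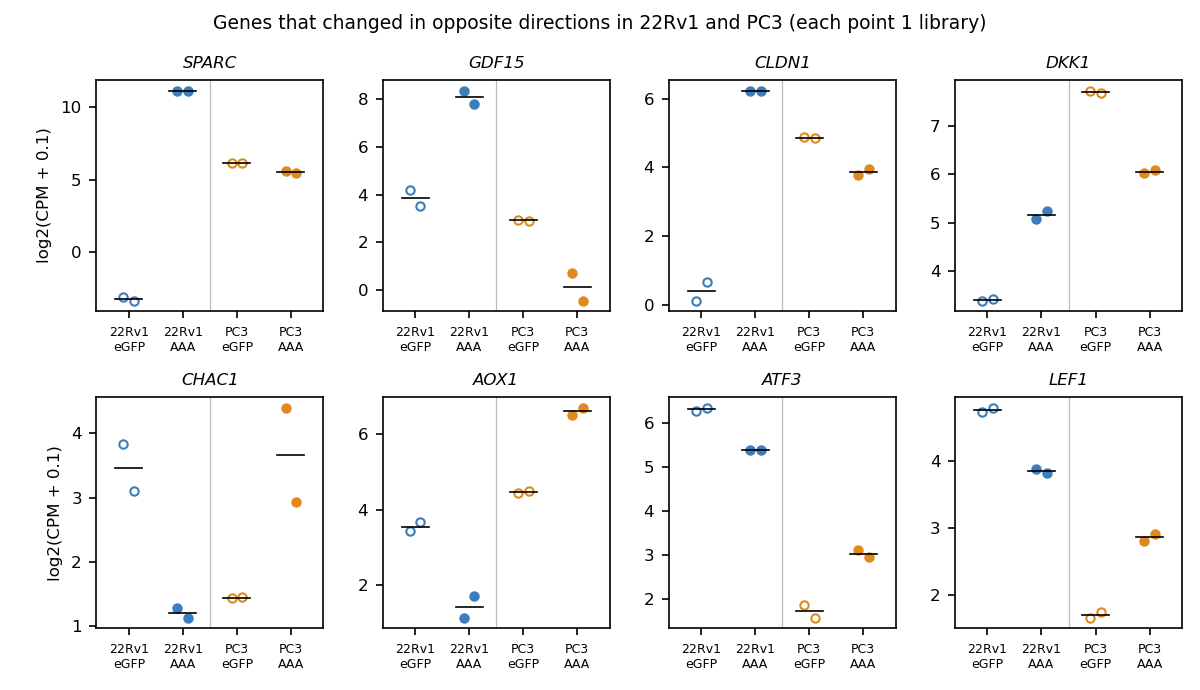
Levels as log2(CPM + 0.1) of 8 genes called in opposite directions, each point 1 library and each bar the mean of 2, in 22Rv1 (blue) and PC3 (orange) with eGFP (open) and ETV4AAA (filled). The upper row rose in 22Rv1 and fell in PC3, the lower row fell in 22Rv1 and rose in PC3, and CHAC1 shows the widest gap between the PC3 replicates with ETV4AAA.

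Genes that changed in PC3 without a call in 22Rv1 numbered 173, with 107 rises and 66 falls. CACNA2D2, a calcium channel subunit, rose in PC3 from 0.443 and 0.559 to 10.6 and 6.79 CPM and stood at 20.3 and 18.1 against 21.5 and 18.1 CPM in 22Rv1, a difference of -4.07 ± 0.40 (adjusted p = 2.6e-05). The cross-linking enzyme transglutaminase TGM2 rose in PC3 from 0.866 and 0.774 to 12 and 7.29 CPM (difference -3.87 ± 0.41). The cytokine signal suppressor SOCS2 rose from 3.28 and 2.88 to 14.3 and 16.7 CPM in PC3 and stood at 1.64 and 2.24 against 1.42 and 1.68 CPM in 22Rv1. The inflammasome protein CARD8, the ephrin receptor EPHA4 and the myosin light chain kinase MYLK rose in PC3 too, with differences of -1.68 ± 0.20, -1.77 ± 0.28 and -1.74 ± 0.21. The PC3 libraries of these 6 genes did not overlap, which their selection by a call in PC3 favours.

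Falls in PC3 alone included epithelial adhesion genes. CDH1, which encodes E-cadherin, fell in PC3 from 14.8 and 14.5 to 6.21 and 6.53 CPM and stood at 344 and 345 against 341 and 315 CPM in 22Rv1 (difference 1.13 ± 0.16, adjusted p = 0.000553). The epithelial protease inhibitor SPINT1 fell in PC3 from 3.82 and 3.87 to 1.44 and 0.932 CPM (difference 1.87 ± 0.32). TJP3, a tight junction scaffold, went from 1.71 and 1.81 to 0.657 and 0.311 CPM in PC3. Its difference of 1.85 ± 0.46 (adjusted p = 0.0163) was not called without 22Rv1 ETV4AAA replicate 1 (1.68, adjusted p = 0.0604), 22Rv1 eGFP replicate 2 (1.62, 0.0573), PC3 ETV4AAA replicate 2 (1.43, 0.0757) or PC3 eGFP replicate 2 (1.81, 0.0501). Across the 32 epithelial junction genes 8 rose and 8 fell in 22Rv1, and 0 rose and 6 fell in PC3. The difference was above 0 for 8 and below for 2. For the 29 mesenchymal genes the counts were 15 rises and 1 fall in 22Rv1 and 2 rises and 3 falls in PC3, with 12 differences above 0 and 2 below. The matrix and mesenchymal genes FN1, TWIST1, SPARC and LRRC15 are members of that list. Of 10 stromal and endothelial markers 8 passed the filter, 3 with a difference above 0 and 0 below. Their summed level was 9.39 and 8.32 CPM in 22Rv1 with eGFP and 17.6 and 15.8 CPM with ETV4AAA, with CDH5, KDR and PECAM1 at 0 counts in the former. In PC3 it was 399 and 406 CPM against 414 and 333 CPM. Most of the PC3 sum was 1 gene, COL1A2, at 352 and 361 CPM with eGFP and 368 and 287 CPM with ETV4AAA. The part of such cells in these results was not tested.

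Genes that moved in the same direction by different amounts numbered 123, and 117 of these rose in both lines. MYL10, a myosin regulatory light chain, had 0 counts in 22Rv1 with eGFP and stood at 92.3 and 93 CPM with ETV4AAA, at least 3010-fold higher. In PC3 it rose from 0.845 and 0.989 to 48.9 and 36.6 CPM. The guanylate-binding GTPase GBP2 went from 0.123 and 0.124 to 23.2 and 24 CPM in 22Rv1, and from 16.7 and 16.7 to 25.2 and 25.8 CPM in PC3 (difference 6.94 ± 0.26). FOXA2, a forkhead factor of endoderm, went from 0.164 and 0.0823 to 12.9 and 10.1 CPM in 22Rv1 and from 12.1 and 13.6 to 28.2 and 24.3 CPM in PC3 (difference 5.48 ± 0.40). PLK2, a p53-responsive kinase, went from 2.34 and 3.05 to 248 and 245 CPM and, in PC3, which lacks p53, from 30 and 28.1 to 62.7 and 67.3 CPM (difference 5.35 ± 0.21). The transmembrane mucin MUC13 rose by 3.46 ± 0.13 and 1.05 ± 0.12.

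A few genes rose more in PC3. STAT6, the signal transducer of interleukin 4, went from 1.79 and 1.76 to 7.25 and 6 CPM in PC3 and from 218 and 191 to 321 and 286 CPM in 22Rv1 (difference -1.33 ± 0.21, adjusted p = 0.000882). The calcineurin regulator RCAN2 went from 0.181 and 0.107 to 2.36 and 2.92 CPM in PC3 and from 6.05 and 6.42 to 8.23 and 11 CPM in 22Rv1 (difference -3.53 ± 0.36). Both of these genes were far lower in the PC3 controls than in those of 22Rv1. The dehydrogenase DHRS2 fell in both, from 91.9 and 82.2 to 9.92 and 9.06 CPM in 22Rv1 and from 2.15 and 2.86 to 1.44 and 1.41 CPM in PC3, and the falls differed by -2.38 ± 0.25.

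Among the remaining lists, TGF-beta and BMP genes had 15 differences above 0 and 2 below of 36, and Notch genes 10 and 0 of 25. TGFBR2, the type II TGF-beta receptor, rose in both lines, from 1.95 and 2.68 to 22 and 24.6 CPM and from 70.5 and 69.7 to 116 and 122 CPM (difference 2.57 ± 0.23). The ligand BMP4 rose in 22Rv1 from 0.964 and 1.03 to 26.2 and 22.1 CPM and was not called in PC3 (difference 4.40 ± 0.25), and SKIL, a feedback repressor of SMADs, had a difference of 2.30 ± 0.24. HES1, a repressor induced by Notch, went from 49.1 and 49.6 to 232 and 224 CPM in 22Rv1, and from 14.3 and 14.4 to 12.4 and 12.2 CPM in PC3 (difference 2.42 ± 0.16). Of 20 MHC class I and antigen presentation genes 7 rose in 22Rv1 and 0 were called in PC3, with 6 differences above 0. The classical heavy chain HLA-B went from 4.64 and 4.28 to 69.7 and 62.5 CPM in 22Rv1 and stayed below 1 CPM in PC3, and the non-classical HLA-E had a difference of 3.04 ± 0.27. Reads of these near-identical HLA genes may be shared between them.

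Interferon-stimulated genes had 14 rises and 4 falls of 40 in 22Rv1, and 0 rises and 7 falls in PC3, with 11 differences above 0 and 0 below. OAS1, an antiviral sensor of double-stranded RNA, rose in 22Rv1 from 0.185 and 0.371 to 1.53 and 1.66 CPM and fell in PC3 from 13.1 and 13.2 to 4.21 and 3.9 CPM (difference 4.21 ± 0.41, adjusted p = 2.52e-05). Its neighbour OAS3, of the same enzyme family, fell in both lines and is described with the shared genes. Androgen-regulated and luminal genes had 5 rises and 14 falls of 29 in 22Rv1 and 2 rises and 3 falls in PC3, with 5 differences above 0 and 6 below. Of the 29, 16 had at least 1 CPM in both lines. The prostate genes SLC45A3 and STEAP2 fell in 22Rv1, from 127 and 105 to 32 and 29.3 CPM and from 281 and 320 to 95.7 and 101 CPM, with differences of -1.57 ± 0.23 and -1.61 ± 0.22. Another metalloreductase of that family, STEAP4, rose in 22Rv1 from 0.492 and 0.885 to 55.6 and 57.3 CPM and was under 0.1 CPM in PC3. Of 32 sterol and fatty acid synthesis genes 10 fell and 1 rose in 22Rv1, 0 fell and 1 rose in PC3, and 7 differences were below 0. The desaturase SCD went from 2380 and 2540 to 1050 and 1010 CPM in 22Rv1 and was not called in PC3 (difference -1.32 ± 0.16). Further lists had differences in both directions, beside 9.48% above 0 and 6.73% below 0 over all genes tested. In either direction the difference was called for 16.2% of all genes tested. It was called for 2738 of the 12564 genes with at least 1 CPM in both lines. Hepatic and gut genes and markers of 22Rv1 stood close to the share over all genes tested. Whether a list departs from these shares was not tested. Above and below 0 there were 9 and 2 of 32 p53 targets, 11 and 1 of 37 hypoxia and glycolysis genes, 7 and 1 of 20 NF-kB targets and chemokines, and 5 and 2 of 24 genes of the unfolded protein response. There were 8 and 5 of 25 neuroendocrine genes, 2 and 3 of 27 hepatic and gut genes, 6 and 7 of 35 HOX genes and 6 and 3 of 26 ETS factors. There were 7 and 4 of 31 immediate early and heat shock genes, 7 and 6 of 30 NRF2 and aldehyde detoxification genes, 3 and 2 of 15 CDK inhibitors and D-type cyclins, and 1 and 1 of 10 markers of 22Rv1. At least 1 CPM in both lines was reached by 9 of the neuroendocrine, 5 of the hepatic and gut and 7 of the HOX genes. None of 35 ribosomal protein genes or 13 mitochondrial transcripts had the difference called by edgeR. Without PC3 ETV4AAA replicate 1 it was called above 0 for 13 ribosomal protein genes.

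The shared response comprised 145 genes up in both lines (0.624% of those tested) and 53 down (0.228%) with no difference called. Such a gene is not thereby shown to respond alike: the 95% interval of the difference reached, in the median, 0.56 log2 units to either side of the estimate. For 112 of the 198 the interval lay within 1 log2 unit of 0, and for 52 the unadjusted interval left out 0. The count of shared genes was 62 without PC3 eGFP replicate 1, 72 without PC3 eGFP replicate 2, 110 without PC3 ETV4AAA replicate 2 and 358 without PC3 ETV4AAA replicate 1.

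The RefSeq sequences (GRCh38.p14) upstream of the gene starts are shown for 4 shared genes, those with the largest value of the smaller of their 2 changes among those that met the naming rule, had at least 1 CPM in both lines and have an entry used here, and for KRT75, which rose in 22Rv1, and ITGB8, which fell in PC3, as genes that depend on the line. Each run holds the 250 bases before the start, 5′ to 3′ on the strand of the gene. Capitals mark the ETS core GGAA, or TTCC where it lies on the other strand. The positions are chr2:68643329-68643578 (+) for PROKR1, chr4:163332597-163332846 (-) for NPY1R, chr5:151224093-151224342 (-) for CCDC69, chr19:3480526-3480775 (-) for SMIM24, chr12:52434372-52434621 (-) for KRT75 and chr7:20330650-20330899 (+) for ITGB8.
PROKR1: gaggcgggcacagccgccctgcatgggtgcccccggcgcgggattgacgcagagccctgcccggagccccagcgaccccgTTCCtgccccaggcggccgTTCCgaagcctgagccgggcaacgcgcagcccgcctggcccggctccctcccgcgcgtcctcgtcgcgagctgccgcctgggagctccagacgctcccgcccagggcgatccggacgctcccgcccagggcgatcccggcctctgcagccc
NPY1R: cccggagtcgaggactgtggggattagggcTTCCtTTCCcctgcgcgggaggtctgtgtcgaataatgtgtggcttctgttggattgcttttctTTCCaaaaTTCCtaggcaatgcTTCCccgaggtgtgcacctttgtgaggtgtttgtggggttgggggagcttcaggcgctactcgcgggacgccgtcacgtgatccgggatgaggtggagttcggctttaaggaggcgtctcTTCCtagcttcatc
CCDC69: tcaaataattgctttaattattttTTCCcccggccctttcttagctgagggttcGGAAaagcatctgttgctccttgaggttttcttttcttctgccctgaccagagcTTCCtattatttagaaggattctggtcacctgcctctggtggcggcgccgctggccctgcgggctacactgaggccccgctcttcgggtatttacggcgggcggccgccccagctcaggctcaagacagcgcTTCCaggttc
SMIM24: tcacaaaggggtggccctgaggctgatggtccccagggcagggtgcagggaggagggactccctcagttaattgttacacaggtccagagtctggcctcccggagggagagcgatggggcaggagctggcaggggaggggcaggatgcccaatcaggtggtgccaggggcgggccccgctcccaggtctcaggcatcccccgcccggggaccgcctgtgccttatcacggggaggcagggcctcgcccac
KRT75: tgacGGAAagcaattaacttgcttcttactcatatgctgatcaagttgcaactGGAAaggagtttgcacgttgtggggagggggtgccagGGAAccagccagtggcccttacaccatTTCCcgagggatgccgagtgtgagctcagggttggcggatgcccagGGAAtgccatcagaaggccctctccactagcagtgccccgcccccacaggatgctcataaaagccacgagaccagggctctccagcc
ITGB8: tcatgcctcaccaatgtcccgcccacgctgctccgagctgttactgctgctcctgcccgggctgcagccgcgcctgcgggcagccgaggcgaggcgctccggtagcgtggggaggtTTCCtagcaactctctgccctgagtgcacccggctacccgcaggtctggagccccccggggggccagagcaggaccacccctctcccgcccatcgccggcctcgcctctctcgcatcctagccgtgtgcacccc
The core was found 2 times for PROKR1, 6 for NPY1R, 4 for CCDC69, 0 for SMIM24, 5 for KRT75 and 1 for ITGB8, counting both strands. Over 35116 such windows in the table the median was 3, and 92.7% held at least 1. The longer ETS motif CCGGAAGT, which contains the core, occurred in 3.42% of the windows and the AP-1 motif TGANTCA in 6.57%, and neither occurred in the 6 shown. A match is a description of letters and not of binding, and the starts listed by RefSeq may not be those used in these cells.

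PROKR1, a receptor for prokineticins, rose from 0.0821 and 0.144 to 3.02 and 3.16 CPM in 22Rv1, and from 0.302 and 0.258 to 9.92 and 9.18 CPM in PC3. The log2 changes were 4.74 ± 0.30 and 5.08 ± 0.25, and their difference of -0.34 had a 95% interval of -1.43 to 0.76. NPY1R, a neuropeptide Y receptor, rose from 1.81 and 1.52 to 16.5 and 19 CPM in 22Rv1 and from 7.35 and 6.75 to 41.7 and 50.8 CPM in PC3, with a difference of 0.70 (interval 0.15 to 1.25, adjusted p = 0.0815). CCDC69, a coiled-coil protein of the mitotic spindle midzone, rose by 1.76 ± 0.21 and 1.87 ± 0.17. The starting levels of all 3 genes were higher in PC3.

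JUN, the core subunit of AP-1 on chromosome 1 from 58780788 to 58784327, rose from 66.8 and 55.9 to 191 and 143 CPM in 22Rv1, and from 37.1 and 39.1 to 120 and 98.3 CPM in PC3. Its changes were 1.45 ± 0.17 and 1.52 ± 0.17, with an interval of the difference from -0.59 to 0.45. The caveolin CAV2 rose from 0.369 and 0.556 to 1.84 and 1.8 CPM in 22Rv1 and from 40.1 and 38.4 to 108 and 118 CPM in PC3. Its neighbour CAV1, the main coat protein of caveolae, rose by 1.80 ± 0.20 and 1.16 ± 0.18, though its PC3 change lost its call without PC3 eGFP replicate 1 (adjusted p = 0.0659) or replicate 2 (0.0636). The caveolins are thus called in both lines although PC3 held far more of both.

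Further genes called up in both lines were KITLG, PRKCH, IGF2BP1 and SMIM24. KITLG, the ligand of the receptor KIT, rose from 6.85 and 7.68 to 26.9 and 28.9 CPM in 22Rv1 and from 48.2 and 43.6 to 116 and 134 CPM in PC3 (difference 0.50, interval 0.02 to 0.97, adjusted p = 0.152). The protein kinase C isoform PRKCH rose by 1.92 ± 0.15 and 1.33 ± 0.14, and its difference missed the threshold (adjusted p = 0.0688). The RNA-binding protein IGF2BP1 rose by 1.58 ± 0.15 and 1.37 ± 0.14, with an interval of the difference from -0.23 to 0.66. SMIM24, whose start window is printed above, rose by 1.63 ± 0.15 to 39.2 and 40.5 CPM in 22Rv1 and by 1.74 ± 0.19 to 2.51 and 2.15 CPM in PC3 (difference -0.11, interval -0.63 to 0.40).

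Among the 53 genes down in both lines were HOXA13, FOXA1 and LGR5. HOXA13, a homeobox factor of the distal body axis, fell from 10.2 and 10.8 to 5.32 and 4.63 CPM in 22Rv1 and from 56.3 and 53.6 to 24.1 and 27.4 CPM in PC3, with a difference of 0.02 (interval -0.46 to 0.50). FOXA1, the pioneer factor of luminal prostate cells, fell from 298 and 295 to 197 and 175 CPM in 22Rv1 and from 166 and 163 to 85.1 and 96 CPM in PC3 (difference 0.19, interval -0.18 to 0.56). LGR5, a receptor for R-spondins that marks epithelial stem cells, fell from 9.54 and 10.3 to 4.88 and 4.98 CPM and from 12.8 and 14.4 to 5.28 and 6.1 CPM. For all 3 genes the libraries did not overlap in either line, which the rule for the largest shared changes required of HOXA13 and LGR5.

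OAS3 fell from 68.1 and 64.4 to 22 and 18.7 CPM in 22Rv1 and from 34.2 and 36.5 to 17.2 and 14.5 CPM in PC3 (difference -0.55, interval -1.09 to -0.01, adjusted p = 0.163). The prostaglandin F receptor PTGFR (-1.82 ± 0.20 in 22Rv1 and -1.01 ± 0.19 in PC3) and the methyltransferase-like protein METTL7A (-1.37 ± 0.14 and -1.07 ± 0.18) fell as well. The PC3 call of PTGFR ended without PC3 eGFP replicate 1 (adjusted p = 0.0926) or replicate 2 (0.13), and that of METTL7A without PC3 eGFP replicate 1 (0.0806). CBX2, a Polycomb subunit, fell from 21.9 and 16.1 to 9.56 and 7.69 CPM in 22Rv1 and from 54.2 and 60.8 to 27.5 and 14.3 CPM in PC3. Its shared call was lost without any of 5 libraries: 22Rv1 ETV4AAA replicate 2, 22Rv1 eGFP replicate 1, PC3 ETV4AAA replicate 2 and either PC3 eGFP library (adjusted p = 0.0858 to 0.112).

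**Figure D5:**
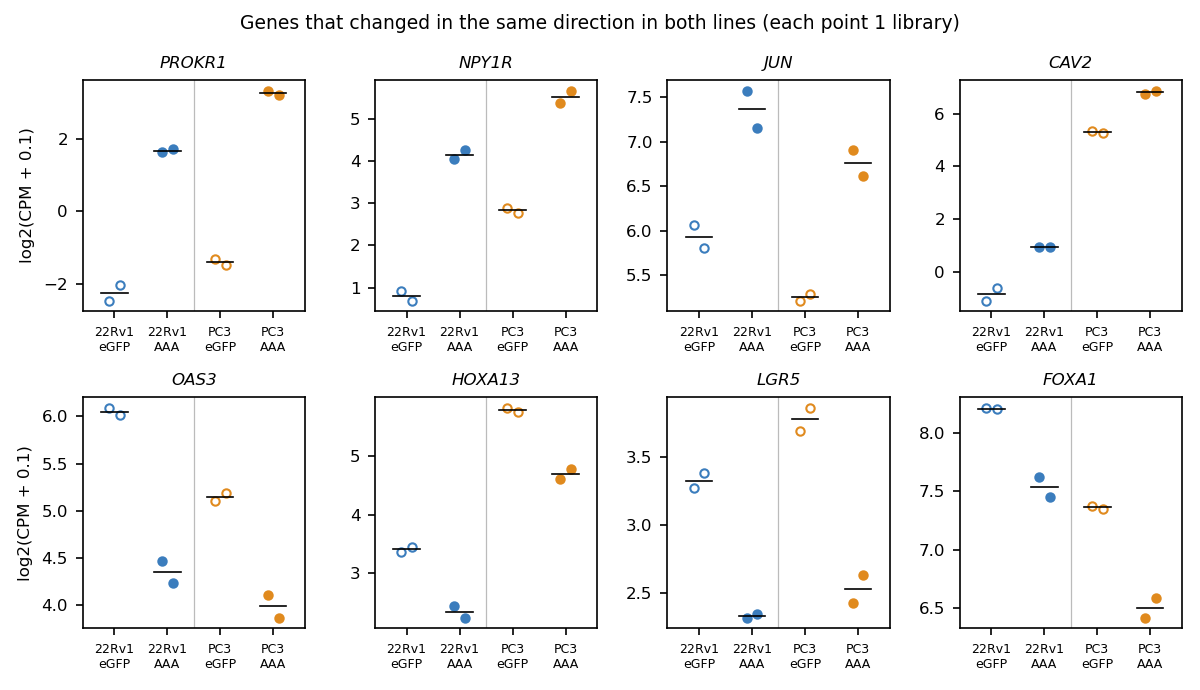
Levels as log2(CPM + 0.1) of 8 genes that were called in the same direction in both lines with no difference called, drawn as in the plot of opposite genes. PROKR1, NPY1R, JUN and CAV2 rose in both lines, and OAS3, HOXA13, LGR5 and FOXA1 fell in both, from starting levels that differ between the lines.

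Some of the largest changes concern genes with a measurable level in a single line, where a difference of log2 changes says little, and these are given by level. In 22Rv1 the calprotectin subunit S100A9 went from 0 counts to 70.4 and 66.5 CPM and stayed under 0.1 CPM in PC3. The apelin receptor APLNR went from 0 and 0.0206 to 71.1 and 63.8 CPM in 22Rv1 and had at most 0.0239 CPM in PC3. The secreted glycoprotein PAEP went from 0 counts to 32.7 and 35 CPM in 22Rv1 and from 0 counts to 0.76 and 0.478 CPM in PC3, where 57 counts against 0 make it at least 20.2-fold higher. The albumin gene ALB fell in 22Rv1 from 95.4 and 116 to 6.92 and 9.11 CPM.

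In PC3 LRRC15, a membrane protein with leucine-rich repeats that fibroblasts express, went from 0.0403 and 0.086 to 68.7 and 60.1 CPM and stayed under 0.3 CPM in 22Rv1. BCL2A1, an anti-apoptotic member of the BCL2 family, went from 0.121 and 0.0215 to 7.42 and 8.75 CPM in PC3, and the hemidesmosome collagen COL17A1 from 0.684 and 0.645 to 7.19 and 5.26 CPM. Both were called up in 22Rv1 as well, at levels under 1 CPM with either vector: BCL2A1 went from 0.041 and 0.0618 to 0.444 and 0.807 CPM and COL17A1 from 0.103 and 0.124 to 0.444 and 0.712 CPM. Neither had a difference called (adjusted p = 0.0591 for BCL2A1 and 0.365 for COL17A1). The chemokine CXCL8 rose from 4.47 and 4.08 to 27.8 and 30.6 CPM in PC3 and had 29 counts against 0 in 22Rv1, at least 10.8-fold higher. The aldehyde dehydrogenase ALDH3A1 fell in PC3 from 8.47 and 9.71 to 1.71 and 0.932 CPM. It also fell in 22Rv1, from 0.903 and 0.762 to 0.2 and 0.308 CPM, with no difference called (adjusted p = 0.251). The protease inhibitor SLPI fell in PC3 from 17.7 and 21.6 to 4.97 and 4.16 CPM and was not called in 22Rv1.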

How the data were processed

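Reads were quality-checked (FastQC 0.11.9) and mapped to GRCh38 (STAR 2.5.3a), per the submitters' processing notes. How reads were assigned to genes, the strand setting and the annotation release: not given in the sources used here. Values deposited by the authors are raw whole-number counts, 1 row per Ensembl ID and 1 column for each of 12 libraries. GENCODE 29 held 99.55% of the 58302 IDs and gave symbols and positions. Genes were filtered with filterByExpr by group, scaled with TMM and fitted in edgeR 4.0.16 (R 4.3.3) with 1 mean per group over all 12 libraries. The difference was an interaction contrast, tested over 23238 genes with Benjamini-Hochberg adjustment. SEs and intervals come from the log2 change and its F statistic, and are less exact near 0 counts. The biological coefficient of variation was 0.149. Scripts were tested on simulated data, where the test of the difference recovered 18 of 100 genes with a true log2 difference of 1. At a true log2 difference of 2 it recovered 94 of 100, and 6 unchanged genes were called. These were the only genes changed among the 22605 simulated, while in the data the difference was called for 16.2% of genes tested. The adjusted threshold was therefore stricter in the simulation than in the data. Differences near 1 log2 unit may be missed in the data too, at a rate that the simulation does not give. Alternatives used DESeq2 1.42.0 and limma 3.58.1.

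A gene was measured in a line at a mean of 1 CPM with eGFP or ETV4AAA. Named genes are a selection, by a rule, of those with the largest differences (8 in each direction for genes called in a single line, 6 for opposite or unequal changes), the largest shared changes (12 in each direction), the largest changes measured in a single line (6), and from each list up to 4 called, 3 shared and 1 uncalled member. They needed 5 CPM in a group and, for differences, log2 changes that do not overlap between lines. The largest shared changes needed both ETV4AAA libraries beyond both eGFP libraries in each line, so that their lack of overlap is no added support. Members taken from lists needed none of these. Most named genes, from lists or not, were picked for a called change or difference, which favours libraries that do not overlap. Lack of overlap is thus no added support for them either. The rule, the lists and the comparison were chosen with earlier results of these data known. Reads have no molecular identifiers, so counting intervals cover counting error only.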

Additional observations from a re-analysis of the deposited data

Results flagged for a closer look

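The effect of ETV4AAA differed between 22Rv1 and PC3 by edgeR's quasi-likelihood test of the difference for 3766 genes. Each value below is the log2 difference of the effects, 22Rv1 minus PC3, of a named gene for which that test was called at an adjusted p under 0.05. Where a control group held 0 to 3 counts, the fitted value depends on the model's prior count and is no bound.

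For the PEA3 factors the difference was 3.12 in ETV4, -2.06 in ETV1 and -2.30 in ETV5. Of genes with 0 to 2 counts in the 22Rv1 controls, it was 15.29 for KRT75, 11.46 for HAPLN1, 9.42 for ARHGDIB, 9.71 for FCGR2A, 8.58 for TLR4, 9.56 for MYL10, 18.0 for SPARC, 6.01 for PLAU and 4.22 for CXCL8. The CXCL8 value was not called under 7 of 18 settings.

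Of 26 ERK output genes tested, 11 had a difference above 0 and 6 below. Some feedback inhibitors and other ERK-induced genes stood above 0: DUSP6 at 5.51, DUSP4 at 4.98, SPRY4 at 4.49 and PHLDA1 at 4.63. The ligands AREG at 4.71 and TGFA at 2.90 stood there as well. Reported PEA3 targets and adhesion genes did too, with TWIST1 at 4.65, CXCR4 at 5.09, ICAM1 at 4.80, LAMA4 at 6.38, LAMB3 at 6.20 and ITGA6 at 4.53. Matrix, secreted and S100 genes were FN1 at 4.16, SERPINE2 at 4.84, IGFBP3 at 2.22, GDF15 at 6.93, S100A6 at 2.93 and S100P at 3.92.

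Of signalling genes, TGFBR2 had 2.57, BMP4 had 4.40, SKIL had 2.30, HES1 had 2.42 and DKK1 had 3.41, whereas LEF1 had -2.10. Immune and antiviral genes were HLA-B at 4.18, HLA-E at 3.04, OAS1 at 4.21 and GBP2 at 6.94. Among other genes above 0, the value was 7.83 for G0S2, 9.85 for MUC5B, 7.83 for FAM131B, 7.04 for TRIB2, 7.10 for HR, 6.93 for CLDN1, 5.48 for FOXA2, 5.35 for PLK2, 2.41 for MUC13 and 2.33 for CDKN2B. Genes that fell in PC3 were ITGB8 at 1.94, SPINT1 at 1.87, TJP3 at 1.85 and CDH1 at 1.13.

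Below 0 lay the amino acid stress genes CHAC1 at -4.80, ASNS at -3.37, ATF3 at -2.27, PSAT1 at -2.03 and CEBPG at -1.78. The cell cycle genes RRM2 at -1.87, MCM4 at -1.24, CDC6 at -1.59 and FAM111B at -1.59 lay there too. Prostate and lipid genes were SLC45A3 at -1.57, STEAP2 at -1.61 and SCD at -1.32. Genes with rises in PC3 were AOX1 at -4.27, CACNA2D2 at -4.07, TGM2 at -3.87, RCAN2 at -3.53, E2F8 at -3.09, TBX18 at -2.95, SOCS2 at -2.65, EPHA4 at -1.77, MYLK at -1.74, CARD8 at -1.68 and STAT6 at -1.33. Genes with falls in 22Rv1 were DHRS2 at -2.38, CDH7 at -2.32, PKP1 at -2.30, ZGRF1 at -2.24 and A1CF at -2.19.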

How the results depend on the processing

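Leaving out each of the 8 libraries in turn, the count of called differences ranged from 2330 to 4648, that of 22Rv1 from 5169 to 7906, that of PC3 from 210 to 2123, that of shared genes from 62 to 358 and that of opposite genes from 35 to 278. A lone library of a group was then assumed to vary like the other groups. With no filter on low counts PC3 had 2152 calls, and there were 392 shared and 353 opposite genes. With at least 1 CPM required in both lines, 12564 genes were tested and 22Rv1 had 4422 calls. The other alternatives, which were DESeq2 size factors, upper-quartile factors, the DESeq2 Wald test, limma-voom, 1 CPM in any group, the 8 libraries alone and leaving out both PC3 replicate 2 construct libraries, kept all 5 counts within 1.5 times. Of the 3766 differences, 2295 to 3670 remained in the same direction under the 18 settings. Upper-quartile scaling shifted the differences by a median of -0.102, and 51.8% of them were then above 0 against 58.5%. Of 114 results for named genes 104 kept their side of the threshold under all 18 settings they could be tested in, and none changed direction. The replicate numbers are not said to pair the libraries. Deviations of same-numbered libraries correlated with r = 0.582 in 22Rv1 and -0.288 in PC3 over 13009 genes. With the replicate block there were 4066 differences, 7421 calls in 22Rv1, 868 in PC3, 197 shared and 140 opposite genes. With 2 libraries a group, and few calls in PC3, a missing call there does not show an absent response. The causes of these shifts were not tested.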
